A study of Mus musculus with 6 samples.

Results

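The IFIT family, the interferon-induced proteins with tetratricopeptide repeats, was followed in mouse cells labelled as primary renal fibroblasts. The members were the rows of the deposited expression table whose gene symbol was Ifit1, Ifit2, Ifit3, Ifit3b or Ifit1bl1, and 6 of 22274 rows met this rule. The symbol column of that table gives the Ifit3b row as Ifit3 and gives the rows of Ifit1bl1 and Ifit1bl2 as Ifit1, so the rule also took in Ifit1bl2, and the 6 genes were told apart by their gene identifiers. These genes were picked because they were already known to differ between the groups of this study, so their differences are described here without p-values.

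RNA sequencing (RNA-seq) had been done on 6 libraries, 3 from cells given small interfering RNA (siRNA) against Prune2 and 3 from cells given a scrambled control siRNA (titled NC, genotype given as WT). Every culture, controls included, had also received TGF-β, the cytokine used to activate fibroblasts, at 5 ng/ml for 48 h, so no library shows these genes without TGF-β. The labels do not say whether the replicates were separate isolations, cultures or repeat libraries, so p-values cover only the spread among the 6 libraries, and that spread may be technical. Neither the age or strain of the mice nor the sequence or number of the siRNAs is given in the labels. The deposited column names of the Prune2 siRNA libraries put the library number directly after the letters si. They do not say whether it marks a replicate or a different siRNA.

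IFIT genes are among the genes most strongly induced by type I interferon. The interferon receptor activates a transcription factor complex, of which STAT2 and IRF9 are part, that binds the interferon-stimulated response element (ISRE) in the promoters of its targets, and IRF3 can act on some of the same promoters after viral RNA has been sensed. The IFIT1 protein binds the end of RNAs whose cap lacks ribose methylation, as many viral RNAs do, and blocks their translation. Human IFIT2 and IFIT3 bind each other and human IFIT3 stabilises IFIT1, and IFIT proteins can also bind the translation factor eIF3. In the kidney as elsewhere, cells that have responded to interferon carry high levels of these transcripts.

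All 6 genes lie in 1 cluster of 99.3 kb on mouse chromosome 19 (build GRCm38, GENCODE M21 annotation), with no other gene of the table between them. In order along the chromosome these are Ifit2 (34550694 to 34576419, plus strand), Ifit3 (34583531 to 34588731, plus), Ifit1bl1 (34592891 to 34601956, minus), Ifit3b (34607970 to 34613401, plus), Ifit1bl2 (34617049 to 34640743, minus) and Ifit1 (34640871 to 34650009, plus). Ifit1bl2 and Ifit1 point away from each other, with 127 bases between the gene models.

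Stretches of the promoters of the 5 tested members are printed because the members differ in the motif that the interferon-activated complex binds. They come from the RefSeq promoter table (GRCm38.p6), read 5′ to 3′ on the strand of the gene, and capitals mark matches, on either strand, to the ISRE core, which is GAAA, NN (any bases) and GAAA in a row.
Ifit1, chr19:34640744-34640870, plus strand: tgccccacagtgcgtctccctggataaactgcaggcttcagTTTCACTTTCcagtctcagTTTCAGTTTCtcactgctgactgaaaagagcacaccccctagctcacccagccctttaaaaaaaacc
Ifit1bl1, chr19:34601969-34602168, minus strand: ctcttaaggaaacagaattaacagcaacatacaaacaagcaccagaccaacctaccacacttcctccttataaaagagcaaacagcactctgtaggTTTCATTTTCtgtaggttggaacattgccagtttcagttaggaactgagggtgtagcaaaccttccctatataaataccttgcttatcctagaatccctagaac
Ifit3, chr19:34583329-34583528, plus strand: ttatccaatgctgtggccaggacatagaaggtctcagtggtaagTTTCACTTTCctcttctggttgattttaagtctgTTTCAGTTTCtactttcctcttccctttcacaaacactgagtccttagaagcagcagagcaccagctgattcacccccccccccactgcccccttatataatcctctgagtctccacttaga
Ifit3b, chr19:34607757-34607956, plus strand: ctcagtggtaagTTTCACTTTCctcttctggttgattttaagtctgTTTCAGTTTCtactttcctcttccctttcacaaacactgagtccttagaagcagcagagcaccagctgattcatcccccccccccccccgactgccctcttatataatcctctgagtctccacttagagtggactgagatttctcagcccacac
Ifit2, chr19:34550494-34550693, plus strand: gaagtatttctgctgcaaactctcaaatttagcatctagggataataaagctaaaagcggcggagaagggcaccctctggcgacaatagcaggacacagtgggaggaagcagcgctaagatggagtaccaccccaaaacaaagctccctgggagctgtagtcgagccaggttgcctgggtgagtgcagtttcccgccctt

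Each RefSeq promoter window held 300 bases, 250 before and 50 after a start site. Of 32851 such windows, 1131 (3.44%) held the motif, and 74 (0.225%) held it at least 2 times. Ifit1, Ifit3 and Ifit3b each had 2 matches, written with the same letters in all 3 genes. In Ifit1 they lay 104 to 95 and 85 to 76 bases upstream of the start, in Ifit3 156 to 147 and 122 to 113 bases upstream, and in Ifit3b 188 to 179 and 154 to 145 bases upstream. Ifit1bl1 had 1 match in each of 2 windows. Ifit2 had 2 windows in the table and neither held these letters, which says nothing of whether the complex binds there. The window of Ifit1 and 1 of the 2 windows of Ifit1bl2 overlap by 245 bases and hold the same 2 matches. The other Ifit1bl2 window held no match. Among the other interferon-induced effector genes listed for comparison, 25 of 53 genes with a window (47.2%) held the motif, against 3.99% of the 27025 genes in the promoter table. A match describes the letters and is not evidence of a bound site.

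Ifit3 and Ifit3b are near-identical copies. Their longest coding sequences matched at 99.1% of bases (1198 of 1209), and their promoters at 216 of 218 aligned bases. Of all 100-base windows of the Ifit3 transcripts, 31.7% were found exactly in Ifit3b, and 27.4% of the windows of Ifit3b were found exactly in another member. With 50-base windows the shares were 51.2% for Ifit3 and 44.5% for Ifit3b, and with 150-base windows 18.55% and 16.0%. Reads from those stretches cannot be told apart, neither the read length nor the treatment of such reads is given in the sources used here, and the split between Ifit3 and Ifit3b is therefore uncertain. The other members are more distant. Ifit1bl1 and Ifit1bl2 matched at 88.2% of coding bases and Ifit1 and Ifit1bl1 at 76.0%, and all pairs not yet named, apart from Ifit1 with Ifit1bl2 at 75.8%, matched at 56.5 to 62.2%. For Ifit1, 3.29% of 100-base windows were shared exactly with another member, for Ifit1bl1 0.524%, and for Ifit2 none.

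The libraries held 21126240, 22969089 and 23234797 counts with Prune2 siRNA, and 20608177, 20075265 and 23035593 with control siRNA, so that 3 counts correspond to 0.128 to 0.150 CPM (reads scaled to library size, here with edgeR's TMM factors). Prune2 itself had 80, 73 and 104 counts with Prune2 siRNA, against 133, 157 and 150 with control siRNA (log2 fold change -0.87, SE 0.15, edgeR adjusted p = 0.000214). Markers of tubular epithelium were read beside those of fibroblasts, with Krt8 at 2208 CPM with Prune2 siRNA and 2420 with control siRNA, and Col1a1 at 204 and 236 CPM in the same order. In that order, Krt18 had 1209 and 1286 CPM, Cdh1 997 and 1055, Epcam 431 and 428, Cdh16 380 and 312 and Pax8 112 and 96.2. Lower tubular markers were Lrp2 at 34.5 and 41.2 CPM, Aqp1 at 7.23 and 9.60, Slc12a3 at 5.32 and 1.99, Umod at 1.58 and 1.38 and Slc12a1 at 0.536 and 0.408. Of the other fibroblast markers, Vim had 395 CPM with Prune2 siRNA and 570 with control siRNA, Col1a2 had 74.8 and 86.0 CPM and Pdgfrb 20.6 and 19.7 CPM in the same order, while Dcn, Lum, Fap, Thy1 and S100a4 were each below 1 CPM in both group means, and Slc34a1 and Aqp2 (proximal tubule and collecting duct) had no count in any library. In such mixed bulk samples, fewer cells of a type and less RNA per cell cannot be told apart.

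Of the 6 members, 5 passed the filter on low counts and Ifit1bl2 did not. In all 5 the 3 Prune2 siRNA libraries lay above the 3 control libraries, where 24.3% of the 13248 tested genes had groups that did not overlap and 11.9% had the Prune2 siRNA libraries on top. All 5 were called higher with Prune2 siRNA at an edgeR adjusted p under 0.05, where 10.3% of tested genes were called in either direction, 4.46% as higher and 5.83% as lower. The members were chosen on this contrast, so nothing is read from these counts. With limma on log2(FPKM + 0.1), Ifit1bl1 and Ifit2 missed the threshold. What follows describes how far the members went, how they differed among themselves and what moved beside them.

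**Figure D1:**
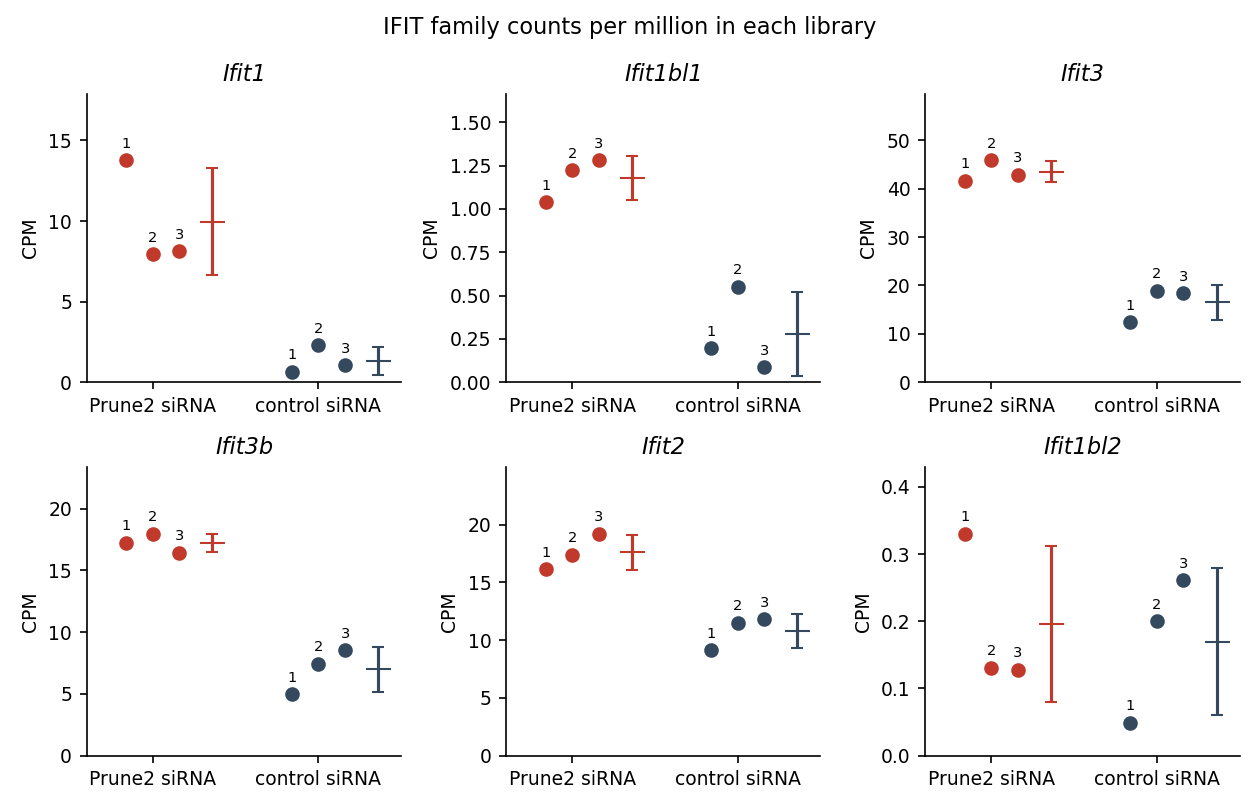
Level in CPM of each IFIT gene in each library, on its own vertical scale from 0, with 3 Prune2 siRNA libraries left and 3 control libraries right in each panel; bars give the mean and SD. The 2 groups are separated for Ifit1, Ifit1bl1, Ifit2, Ifit3 and Ifit3b and overlap for Ifit1bl2.

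Ifit1, the member that binds RNA with an incompletely methylated cap, had 292, 182 and 190 counts with Prune2 siRNA, against 13, 46 and 24 with control siRNA. These are 13.8, 7.94 and 8.12 CPM with Prune2 siRNA and 0.635, 2.30 and 1.04 CPM with control siRNA. The lowest Prune2 siRNA library was 3.45 times the highest control library. Mean levels were 9.95 ± 3.32 CPM with Prune2 siRNA and 1.33 ± 0.868 CPM with control siRNA (SD, n = 3 each), a log2 fold change of 2.91 (SE 0.27) or 7.53-fold. No other tested gene had a larger log2 fold change. Control replicate 2 carried the most Ifit1 of its group, and without it the log2 fold change was 3.53. On the log2(FPKM + 1) scale, which shrinks differences of low genes, it was 1.66.

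Ifit1 was also the tested member whose Prune2 siRNA libraries spread most. Their coefficient of variation was 33.4%, where counting error alone would give 6.72%, and replicate 1 stood above the other two. Among control libraries the coefficient of variation was 65.4%, against 19.0% from counting alone, and the highest library had 3.62 times the level of the lowest.

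Ifit1bl1, a mouse relative of Ifit1 known mainly by its sequence, had 22, 28 and 30 counts with Prune2 siRNA and 4, 11 and 2 with control siRNA. Its mean level was 1.18 ± 0.127 CPM with Prune2 siRNA and 0.277 ± 0.242 CPM with control siRNA (SD, n = 3 each). The log2 fold change was 2.11 (SE 0.44), the least precise of the 5, and it was 3.04 without control replicate 2, where Ifit1bl1 was again highest, and 1.66 without control replicate 3, where it was lowest. On the log2(FPKM + 1) scale it was 0.45. The 3 Prune2 siRNA libraries were close together, with a coefficient of variation of 10.7% where counting alone would give 19.4%. Among control libraries the coefficient was 87.3%, against 42.0% from counting alone. Prune2 siRNA replicate 1 was the highest of its group for Ifit1 and the lowest for Ifit1bl1. For Ifit1bl1 the order of the Prune2 siRNA libraries lies within counting error.

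Ifit1bl2, which shares its promoter region with Ifit1, had 7, 3 and 3 counts with Prune2 siRNA and 1, 4 and 6 with control siRNA. The groups overlapped, with 13 counts in all with Prune2 siRNA and 11 with control siRNA. At this depth no difference was detectable for Ifit1bl2, and the intervals of such counts are wide.

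Ifit3, which in human cells partners IFIT2 and stabilises IFIT1, was the most abundant member per transcript length. It had 882, 1052 and 1005 counts with Prune2 siRNA and 253, 378 and 422 with control siRNA. Mean levels were 43.5 ± 2.19 CPM with Prune2 siRNA and 16.5 ± 3.63 CPM with control siRNA (SD, n = 3 each), which gives a log2 fold change of 1.39 (SE 0.09). The Prune2 siRNA libraries were tight, with a coefficient of variation of 5.04%, and the control libraries were looser at 21.9%, control replicate 1 being the lowest.

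Ifit3b, the copy of Ifit3, had 365, 412 and 385 counts with Prune2 siRNA and 102, 149 and 196 with control siRNA. Its mean level was 17.2 ± 0.766 CPM with Prune2 siRNA and 6.98 ± 1.81 CPM with control siRNA (SD, n = 3 each), a log2 fold change of 1.29 (SE 0.12). Since the reads of the pair are partly interchangeable, the summed rows are the safer measure, and their log2 fold change was 1.36 (SE 0.09).

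Within the pair, the share assigned to Ifit3b was between 27.7% and 31.7% in every library. It was 29.3% (95% Wilson interval 26.8 to 31.9), 28.1% (25.9 to 30.5) and 27.7% (25.4 to 30.1) of the pair's counts with Prune2 siRNA. With control siRNA it was 28.7% (24.3 to 33.6), 28.3% (24.6 to 32.3) and 31.7% (28.2 to 35.5), and the groups overlapped. These intervals cover counting error only.

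Ifit2, the partner of IFIT3 in human cells, had the smallest difference of the tested members. Ifit2 was also the only tested member without the motif in any promoter window, and a link between motif and difference was not tested. It had 342, 399 and 450 counts with Prune2 siRNA, against 187, 230 and 272 with control siRNA. Mean levels were 17.6 ± 1.55 CPM with Prune2 siRNA and 10.8 ± 1.47 CPM with control siRNA (SD, n = 3 each). The log2 fold change was 0.70 (SE 0.10) or 1.63-fold, and the lowest Prune2 siRNA library stood 1.37 times above the highest control library. Control libraries of Ifit2 were also the closest together of the tested members, with the highest 1.29 times the lowest.

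The authors' deposited table gives log2 fold changes of 2.92 for Ifit1, 2.09 for Ifit1bl1, 1.40 for Ifit3, 1.31 for Ifit3b, 0.73 for Ifit2 and 0.26 for Ifit1bl2, in the same order as the edgeR values for the 5 tested genes.

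Levels of different members can be compared as FPKM, the authors' fragment values scaled to transcript length and library size. Ifit3 averaged 25.0 ± 1.17 FPKM with Prune2 siRNA and 9.43 ± 2.09 with control siRNA. Ifit3b averaged 8.64 ± 0.345 FPKM with Prune2 siRNA and 3.49 ± 0.913 with control siRNA, and Ifit2 averaged 4.74 ± 0.415 and 2.86 ± 0.416 FPKM in the same groups (SD, n = 3 each). Ifit1 averaged 3.75 ± 1.25 FPKM with Prune2 siRNA and 0.497 ± 0.323 with control siRNA, and Ifit1bl1 averaged 0.540 ± 0.0625 and 0.127 ± 0.110 FPKM in the same groups. The order of means was the same in both groups, but with Prune2 siRNA the ranges of Ifit2 (4.33 to 5.16 FPKM) and Ifit1 (2.98 to 5.20 FPKM) overlapped, whereas with control siRNA Ifit2 lay apart at 2.38 to 3.11 FPKM, above Ifit1 at 0.24 to 0.86. With control siRNA the highest Ifit2 library, at 3.11 FPKM, was also above the lowest Ifit3b library, at 2.48.

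Set against the other tested genes, Ifit3 stood above 76.1% of them by mean FPKM with Prune2 siRNA and above 49.95% with control siRNA. Ifit1 stood above 30.3% of tested genes with Prune2 siRNA and above 7.94% with control siRNA. Ifit2 stood above 34.1% with Prune2 siRNA and 26.0% with control siRNA.

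The balance between members differed between the groups. Ifit1 amounted to 21.7%, 11.4% and 12.4% of the Ifit3 level (FPKM) with Prune2 siRNA, against 3.41%, 7.98% and 3.72% with control siRNA. Ifit2 went the other way, at 18.1%, 18.0% and 20.8% of the Ifit3 level with Prune2 siRNA and 33.9%, 28.8% and 29.5% with control siRNA. The groups did not overlap for either ratio. Relative to Ifit2, Ifit1 stood at 120%, 63.1% and 59.7% with Prune2 siRNA and at 10.1%, 27.7% and 12.6% with control siRNA. These ratios follow from the unequal fold changes of members chosen on this contrast and are given without a test.

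**Figure D2:**
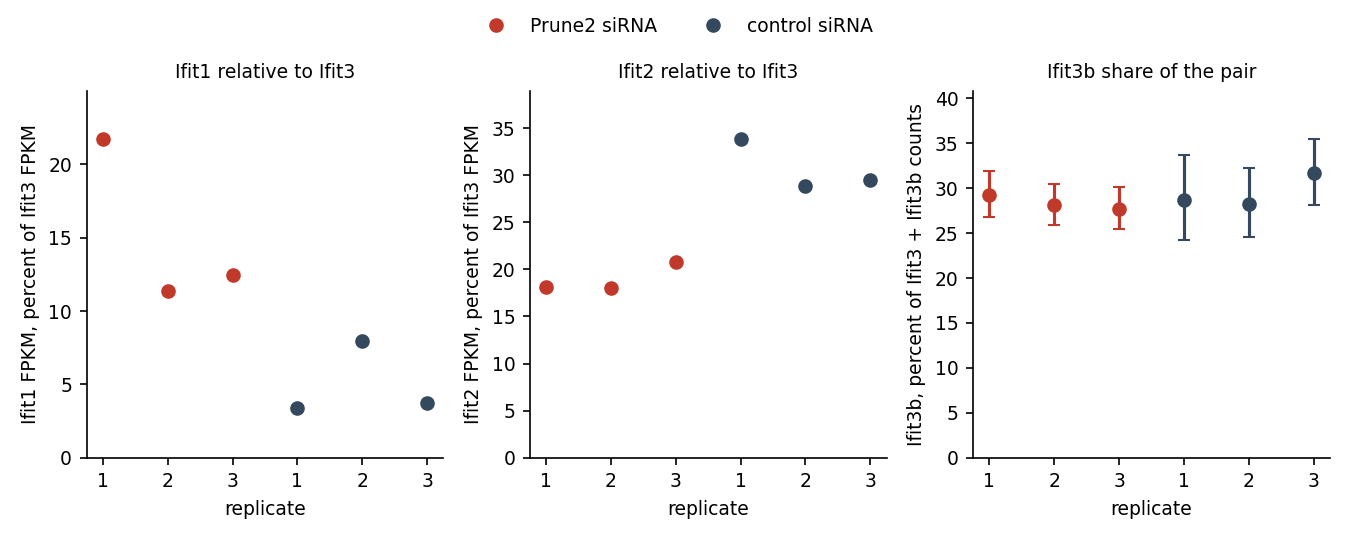
Ratios between IFIT genes in each library, with Prune2 siRNA libraries left and control libraries right in each panel: Ifit1 and Ifit2 as percent of the Ifit3 FPKM, and Ifit3b as percent of the counts of the Ifit3 and Ifit3b pair with 95% Wilson intervals. The first is higher and the second lower with Prune2 siRNA, with no overlap, and the third overlaps.

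Summed over the 6 rows, the family had 42.67, 43.52 and 41.94 FPKM with Prune2 siRNA and 12.23, 18.78 and 18.35 FPKM with control siRNA. The mean was 2.60 times as high with Prune2 siRNA. Ifit3 made up 58.5 ± 2.18% of this sum with Prune2 siRNA and 57.3 ± 0.164% with control siRNA, and Ifit3b 20.2 ± 0.436% and 21.1 ± 1.85% in the same groups. Ifit2 made up 11.1 ± 1.10% with Prune2 siRNA and 17.6 ± 1.60% with control siRNA. Ifit1 made up 8.79 ± 2.95% with Prune2 siRNA and 2.89 ± 1.47% with control siRNA (SD, n = 3 each).

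**Figure D3:**
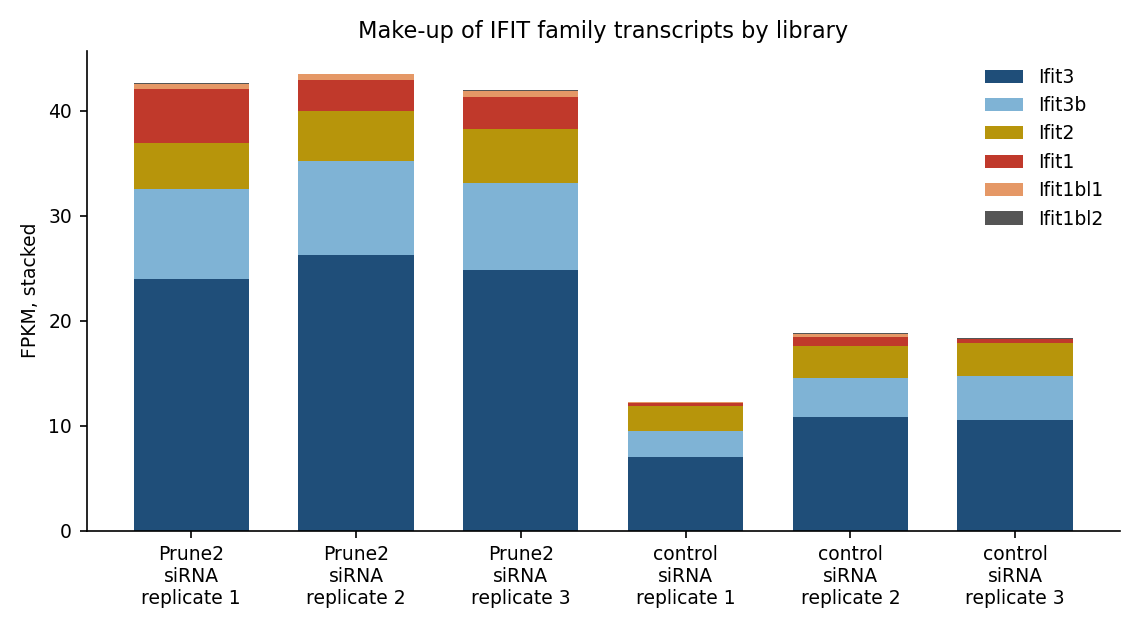
Makeup of the summed IFIT FPKM in each library as stacked bars from 0, Prune2 siRNA libraries left and control libraries right. The Prune2 siRNA bars reach 41.94 to 43.52 FPKM and the control bars 12.23 to 18.78, Ifit3 is the largest part of every bar, and the Ifit1 part is thin in the control bars.

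Of the 5 nearest genes of the table on each side of the cluster, 9 were tested and 2 were called, both lower with Prune2 siRNA, where 4.46% of all tested genes were called higher and 5.83% lower. With so few genes, nothing is read from these counts. Ch25h, cholesterol 25-hydroxylase and itself known as an interferon-induced gene, lies 75.5 kb from the cluster and had 24, 9 and 19 counts with Prune2 siRNA against 39, 40 and 50 with control siRNA (log2 fold change -1.39, SE 0.31, edgeR adjusted p = 0.00318). Acta2, smooth muscle actin and a marker of activated fibroblasts, had a log2 fold change of -0.29 (SE 0.04, edgeR adjusted p = 7.32e-06). The closest genes, Slc16a12 at 18.4 kb and Lipa at 23.2 kb, had log2 fold changes of 0.17 (SE 0.17) and -0.08 (SE 0.06) and were not called.

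**Figure D4:**
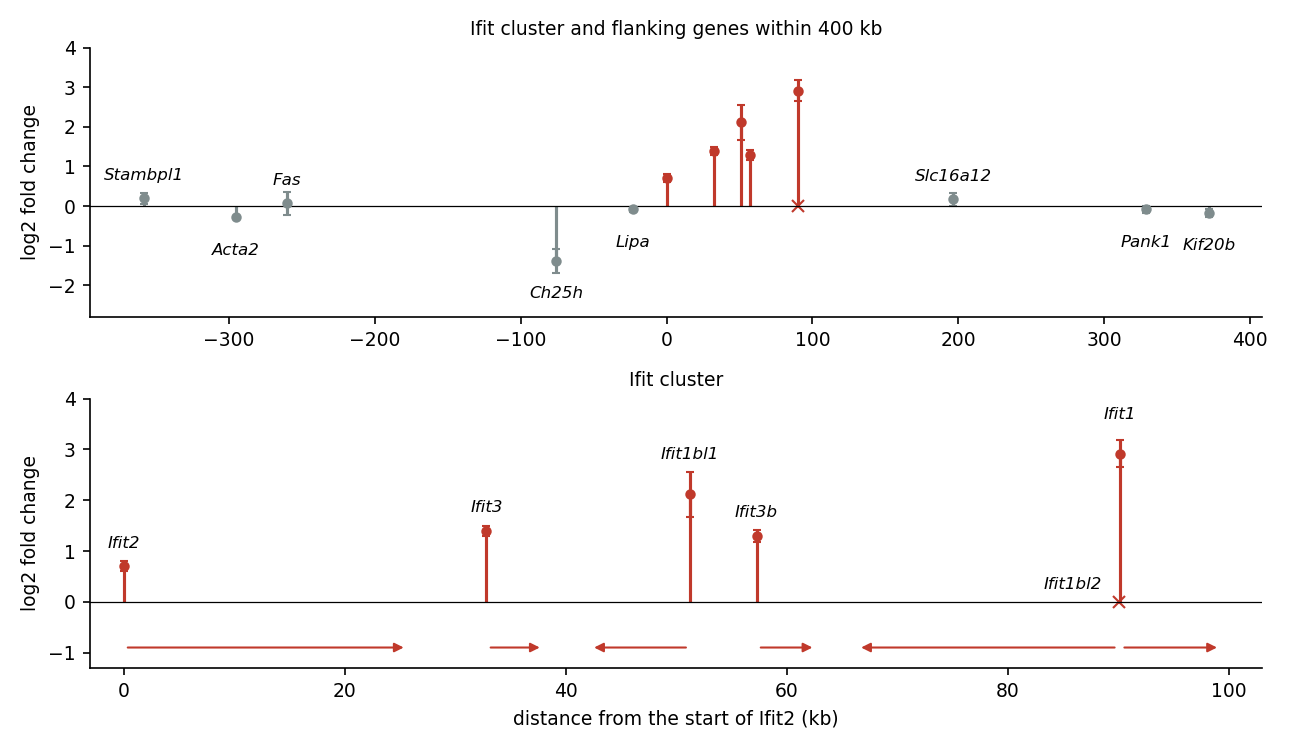
Log2 fold change, Prune2 siRNA over control siRNA, by distance in kb from the start of Ifit2, for the IFIT cluster with genes within 400 kb (upper) and the cluster alone (lower); points stand at each gene's start, error bars are SE, arrows show gene extent and strand, and the cross is Ifit1bl2, which was not tested. The IFIT points (red) lie between 0.70 and 2.91, and the neighbours (grey) between -1.39 and 0.19.

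Genes that resembled each member most were sought by the root mean square (RMS) difference of centred log2 CPM over the 6 libraries, among 12384 genes of at least 1 CPM on average. For Ifit1 they were Apol9a (0.27), Xaf1 (0.43) and Tgtp2 (0.50), all interferon-induced. For Ifit1bl1 they were Irf7 (0.37), Apol9b (0.38) and Isg15 (0.38), a transcription factor and further products of the interferon response. Ifit3 and Ifit3b were each other's closest genes (0.09), followed by Ifi27 and by C3, the central complement component. The closest genes to Ifit2 were Cp (0.08), which encodes ceruloplasmin, Tvp23a (0.09) and Lbp (0.10), the lipopolysaccharide-binding protein. Among the members, Ifit2 was 0.37 from Ifit3 and 0.35 from Ifit3b. Ifit1 itself was 1.24 from Ifit2 and 0.90 from Ifit3 on this scale. With 6 libraries in 2 groups the measure includes the group difference itself.

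Other genes of the interferon pathway were counted from lists made with earlier results of these data known. No interferon gene could be tested: of 21 ligand genes in the table, 18 had no count in any library. Ifnb1 had 1 count, in Prune2 siRNA replicate 3, Ifne had 2 counts in the same library, and Ifnz had 3, 2 and 4 counts with Prune2 siRNA and 9, 0 and 3 with control siRNA. A count of 0 allows a level of up to 0.128 to 0.150 CPM per library.

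Among 12 receptors and signal transducers, 4 rose, 1 fell and 7 were not called, with a median log2 fold change of 0.01. By comparison, 4.46% of all tested genes were called higher and 5.83% lower. Irf9 and Stat2, which encode parts of the ISRE-binding complex, were among those that rose. Irf9 averaged 38.3 ± 2.37 CPM with Prune2 siRNA and 19.5 ± 3.73 with control siRNA (log2 fold change 0.98, SE 0.09, edgeR adjusted p = 1.03e-08). Stat2 averaged 36.4 ± 2.57 CPM with Prune2 siRNA and 21.7 ± 2.52 with control siRNA (log2 fold change 0.75, SE 0.08, edgeR adjusted p = 8.19e-08). The receptor chains Ifnar1 and Ifnar2 were not called, at 140 and 29.2 CPM with Prune2 siRNA and 143 and 30.0 CPM with control siRNA.

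The list of interferon regulatory factors, which also holds the IRF2-binding proteins Irf2bp1 and Irf2bp2 (neither called), went in both directions, with 2 of 10 genes higher, 2 lower and 6 not called. Over all tested genes, 4.46% were called higher and 5.83% lower. Irf7, which amplifies interferon production and is itself induced by interferon, averaged 8.70 ± 2.71 CPM with Prune2 siRNA and 2.03 ± 1.04 with control siRNA (log2 fold change 2.12, SE 0.24, edgeR adjusted p = 4.25e-07). Irf8, a factor of myeloid and B cells, fell, with 1.35 CPM with Prune2 siRNA and 5.02 with control siRNA (edgeR adjusted p = 3.12e-07), and so did Irf5 (log2 fold change -0.98, edgeR adjusted p = 3.82e-05).

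Of 16 tested sensors of RNA and DNA and their adaptors, 6 rose, 2 fell and 8 were not called. The shares over all tested genes were 4.46% called higher and 5.83% called lower. Ddx58, the gene of the RNA sensor RIG-I, averaged 71.1 ± 5.94 CPM with Prune2 siRNA and 40.5 ± 7.98 with control siRNA (log2 fold change 0.82, edgeR adjusted p = 1.06e-07). Ifih1, which encodes the sensor MDA5, rose less (log2 fold change 0.51, edgeR adjusted p = 1.36e-05). Tlr7, an endosomal sensor found mainly in immune cells, fell (log2 fold change -2.34, SE 0.47, edgeR adjusted p = 0.00113).

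Of 63 tested interferon-induced effectors outside the IFIT family, 52 rose, none of the list fell and 11 were not called, with a median log2 fold change of 0.80, where the median of all tested genes was 0.00 and 4.46% of them were called higher. With limma on log2(FPKM + 0.1), 21 effectors were called higher. Ch25h, the interferon-induced neighbour of the cluster that was lower with Prune2 siRNA, is not on this list. Examples are Ifi27 (log2 fold change 1.25, edgeR adjusted p = 2.03e-11), Lgals3bp (0.80, adjusted p = 1.04e-10) and the GTPase gene Tgtp1 (1.82, adjusted p = 8.40e-10). Set among these 63 genes, Ifit1 had no effector above it, Ifit1bl1 had 9, Ifit3 had 19, Ifit3b had 20 and Ifit2 had 34, so Ifit2 lay near the middle of the list. The immunoproteasome genes Psmb8, Psmb9 and Psmb10 were among those not called.

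**Figure D5:**
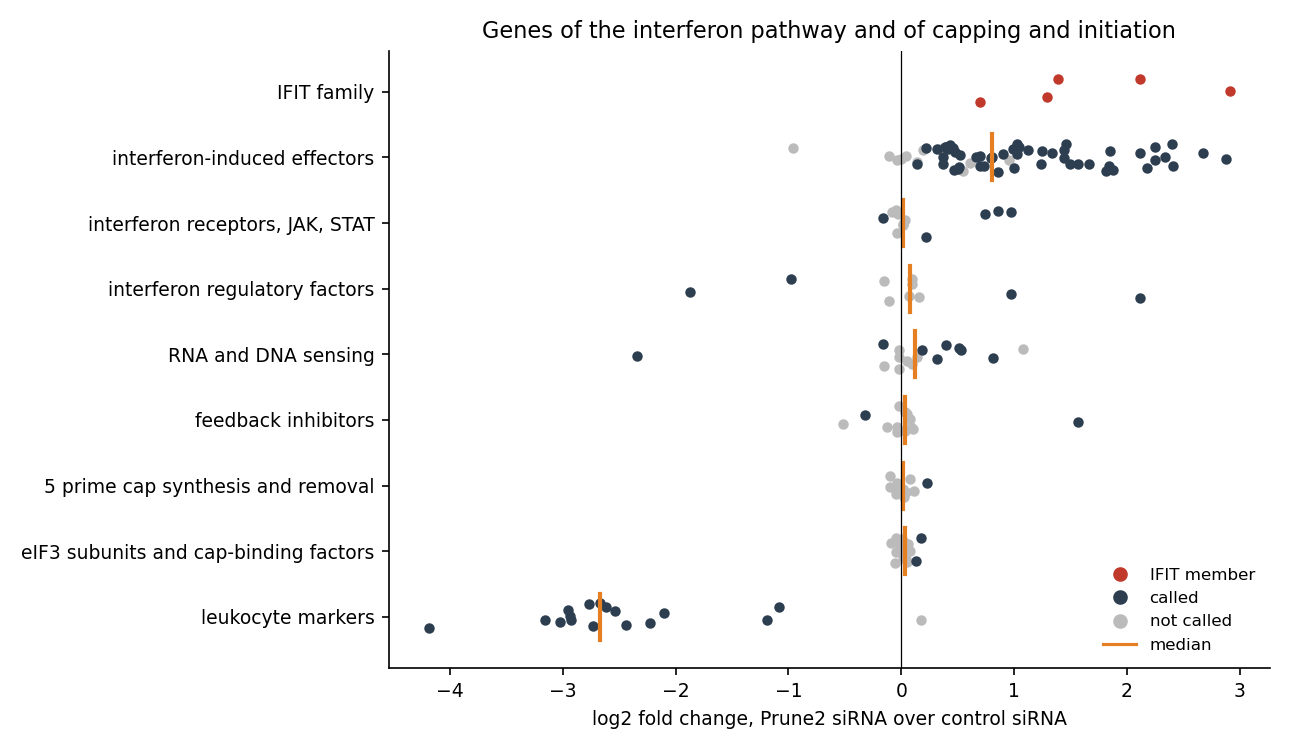
Log2 fold change, Prune2 siRNA over control siRNA, of every tested gene in each list, with a point per gene; IFIT genes are red, other genes dark where the adjusted p was under 0.05 and grey otherwise, the regulatory factor row includes Irf2bp1 and Irf2bp2, and bars give list medians, drawn for all lists except the IFIT genes. Most effectors lie above 0 with a median of 0.80, cap enzymes and eIF3 genes lie near 0, and leukocyte markers lie below 0 with a median of -2.67.

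Genes that act on the cap and on translation initiation were called at about the share of all tested genes, of which 10.3% were called. Of 13 genes for cap synthesis and removal, Cmtr1, the enzyme that adds the first cap ribose methylation and that is itself interferon-induced, averaged 64.1 ± 1.36 CPM with Prune2 siRNA and 54.6 ± 3.06 with control siRNA (log2 fold change 0.23, SE 0.05, edgeR adjusted p = 0.00269), and the other 12 were not called. Of 19 genes for eIF3 subunits and cap-binding factors, Eif3f (log2 fold change 0.13, edgeR adjusted p = 0.0188) and Eif4ebp1 (0.17, adjusted p = 0.0316) rose and 17 were not called. Among 13 feedback inhibitors, Usp18, the protease that removes ISG15 and restrains the interferon receptor, rose (log2 fold change 1.56, SE 0.18, edgeR adjusted p = 3.90e-07), Ptpn6 fell (log2 fold change -0.32, edgeR adjusted p = 0.0115) and 11 were not called.

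Leukocyte markers moved beside the IFIT genes in the opposite direction. Of 17 tested markers, 16 were lower with Prune2 siRNA and Cd14 was not called, with a median log2 fold change of -2.67. Their summed level was 53.8 to 57.2 CPM with Prune2 siRNA and 217 to 271 CPM with control siRNA, and Cd3e and Siglech were at 0 in every library. Irf8, Irf5 and Tlr7 went in the same direction as these markers. Likewise 6 of 10 tested endothelial markers, 3 of 8 fibroblast markers and 2 of 5 podocyte markers were called lower with Prune2 siRNA. None of these was called higher, and of 10 tubular markers 3 were higher and 3 lower. Over all tested genes, 5.83% were called lower and 4.46% higher. The part of these marker differences in the IFIT values was not tested.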

How the data were processed

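Total RNA from 6 libraries was sequenced. The authors deposited 1 table of 22274 genes whose columns, per the file headers, are counts and FPKM for every library, group means of FPKM, and the log2 fold change with its raw and adjusted p-value. The submitters' processing notes name GRCm38 and mm10 as builds. Neither the aligner nor the counter, nor how reads shared between copies were assigned, is given in the sources used here. Deposited p-values were not used.

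Of the gene identifiers, 22219 matched GENCODE M21 (GRCm38) and 55 did not. Counts as deposited were fitted with edgeR 4.0.16 (R 4.3.3; TMM, filterByExpr, glmQLFit, glmQLFTest), with p-values adjusted by Benjamini-Hochberg over the 13248 genes left by the filter and calls at an adjusted p under 0.05. The SE is the log2 fold change divided by the square root of F. The procedure was tested on simulated data that gave every gene the same spread beyond counting error. Genes that vary as much between replicates as Ifit1 were therefore not covered. Replicate libraries of a group differed by 2.57 to 3.92 in chi-square per degree of freedom, so none was counted as a duplicate. Library totals of 20075265 to 23234797 counts set the precision; Wilson intervals (95%) and limits from 3 counts cover counting error only. An exact permutation test of 3 against 3 libraries cannot give a p under 0.1 and none was run. Transcripts were aligned and searched with Biopython 1.88. Alternatives used limma 3.58.1 and DESeq2 1.42.0.

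The members and gene lists were chosen with earlier results of these data known. Genes named are the members, Prune2, up to 3 called genes per list and direction by adjusted p, the flanking genes, and the 3 genes nearest to each member; receptor genes, cell type markers and uncalled list genes beyond these were added to resolve counts. A gene that the rule names is not reported here. Protein sequences were not used here.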

Additional observations from a re-analysis of the deposited data

How the results depend on the processing

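The 15 alternatives included another scaling (RLE or upper quartile), no filter on low counts, DESeq2, limma-voom, and limma on log2(FPKM + 1) or log2(FPKM + 0.1). The rest were a replicate block, related members summed, and each library left out. The summing joined Ifit3 with Ifit3b, and Ifit1 with Ifit1bl1 and Ifit1bl2, so these genes had no value of their own there. None of the 5 tested IFIT genes, or of the sums holding them, changed direction in any alternative. Ifit1bl2 was not followed on its own through the alternatives. With log2(FPKM + 0.1), 2 members missed the threshold, Ifit1bl1 at a log2 difference of 1.60 and Ifit2 at 0.715. With log2(FPKM + 1), where the pseudocount shrinks low genes, Ifit1 was at 1.66 and Ifit1bl1 at 0.45. The edgeR fit called 1364 genes, 591 higher and 773 lower with Prune2 siRNA. Limma called 589 (209 higher, 380 lower) with log2(FPKM + 1) and 409 (113 higher, 296 lower) with log2(FPKM + 0.1), where 21 of the effectors were called higher instead of 52. Leaving out 1 library gave 997 to 1249 genes and 44 to 52 effectors, with log2 fold changes of 2.59 to 3.53 for Ifit1, 1.66 to 3.04 for Ifit1bl1, 1.22 to 1.49 for Ifit3, 1.10 to 1.47 for Ifit3b and 0.59 to 0.77 for Ifit2. Deviations of same-numbered libraries correlated at 0.03, -0.04 and -0.02, which cannot show whether replicate numbers pair the samples. A fit with the replicate block called 1490 genes, with Ifit1 at 2.89 (SE 0.24, against 0.27 without the block). Summing Ifit1 with Ifit1bl1 and Ifit1bl2 gave 2.68. Depth limits Ifit1bl2, with at most 7 counts in a library, and Ifit1bl1 in controls.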

Other observations

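The libraries of a group did not carry equal levels of interferon-induced genes. Of the 63 tested effectors outside the IFIT family, 49 (77.8%) were highest in replicate 1 among the Prune2 siRNA libraries, against 33.9% of all tested genes. Among the control libraries, 47 of the 63 (74.6%) were highest in replicate 2, against 32.5% of all tested genes. Ifit1 had both of these maxima. Ifit1bl1 and Ifit3 had the second but were lowest in Prune2 siRNA replicate 1. Ifit2 had neither, with replicate 3 the highest of both groups, and Ifit3b was highest in Prune2 siRNA replicate 2 and control replicate 3. For Ifit1bl1 and Ifit3b the spread among Prune2 siRNA libraries was no larger than counting error, so their order there is uncertain. Control replicates 2 and 3 were close for Ifit2 (11.5 and 11.8 CPM) and Ifit3 (18.9 and 18.3 CPM). Which of them was highest is therefore also uncertain. The genes of the list share their libraries and are not independent of each other, and the source of the differences between replicates was not tested.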
